A study of Mus musculus with 24 samples.

Results

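The Hox genes are the genes of the 4 mouse Hox clusters, which encode homeodomain transcription factors. They were taken as every gene whose symbol is Hox followed by a cluster letter (a to d) and a paralog number, which gave 39 of the 55487 genes in the tables: 11 in HoxA on chromosome 6, 10 in HoxB on chromosome 11, 9 in HoxC on chromosome 15 and 9 in HoxD on chromosome 2. Their messenger RNA was measured in colon and in colorectal tumours of C57BL/6 mice, of which the KO mice lack Axin1 in intestinal epithelial cells only and the WT mice are wild type for it. The 8 groups of 3 libraries, described as biological replicates, were untreated KO and WT colon, KO and WT colon taken at day 7 and at day 13 of a course of dextran sulfate sodium (DSS, which damages the colonic epithelium), and KO and WT tumours raised with the carcinogen azoxymethane (AOM) and DSS. None of the sources used here gives the transgene that drives the deletion, the place along the colon from which tissue was taken, or the age and sex of the mice.

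Hox genes tell cells where they lie along the body axis. Within a cluster they are switched on in order, so that low paralog numbers are used toward the head and high numbers toward the tail, and the last of them, paralog group 13, mark the hindgut. In the adult gut the epithelium and the surrounding muscle and connective tissue keep region-specific Hox expression, set by the caudal factors Cdx1 and Cdx2, by retinoic acid and by Polycomb and Trithorax proteins, and the proteins bind DNA with Pbx and Meis cofactors.

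Library depth ran from 15653300 to 28066996 expected counts. Axin1 stood at 4.98 to 9.55 TPM (a level scaled by transcript length and library) in KO colon, against 19.0 to 31.7 TPM in WT colon. It stood at 8.60 to 9.93 TPM in KO tumours, against 22.8 to 35.1 TPM in WT tumours. Among cell type markers, 10 epithelial genes summed to 6465 to 15170 TPM over all libraries, and 10 smooth muscle genes summed to 140 to 286 TPM in tumours, against 1417 to 9669 in colon, with the highest value in WT day 7 replicate 2. Genes of squamous epithelium, a list of 10, summed to 885 TPM in KO day 13 replicate 1 and 4411 TPM in WT day 13 replicate 3, against at most 14.7 in the other colon libraries. Fold changes below are log2 values ± SE from an edgeR quasi-likelihood fit of the counts, with p adjusted by the Benjamini-Hochberg method over all genes tested, and a gene is called at an adjusted p under 0.05.

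Most Hox transcript came from the posterior ends of HoxA, HoxB and HoxD. Of the 39 genes, 26 had a mean of at least 1 TPM over the 24 libraries and 11 had a mean of at least 10 TPM. Hoxb13, the most posterior HoxB gene (chr11:96194316-96197447, plus strand, GRCm38 in GENCODE M21), had the highest mean at 212 TPM. Hoxd13, its counterpart in HoxD (chr2:74668310-74671599, plus strand), came next at 88.0 TPM. Hoxa9 (chr6:52223100-52231089, minus strand), a gene best known for its part in blood progenitors, averaged 57.5 TPM, Hoxa10 54.1 TPM, Hoxa13 (chr6:52257694-52260880, minus strand) 45.2 TPM, Hoxa7 42.0 TPM and Hoxb9 32.0 TPM. HoxA was the most even cluster: Hoxa2, Hoxa3, Hoxa5, Hoxa6, Hoxa7, Hoxa9, Hoxa10, Hoxa11 and Hoxa13, together with Hoxb9 and Hoxb13, were the 11 genes at 1 TPM or more in every library.

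HoxC transcript was nearly undetected. The summed TPM of its 9 genes was at most 0.99 in any library, and its highest member, Hoxc4 (chr15:103018934-103036852, plus strand), averaged 0.146 TPM. No count at all was assigned to Hoxb1, Hoxc12 or Hoxc13 in the 24 libraries. Genes of paralog groups 9 to 13 made up a median of 85.1% of the Hox TPM of a library, with a range of 42.9% to 90.7%.

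**Figure D1:**
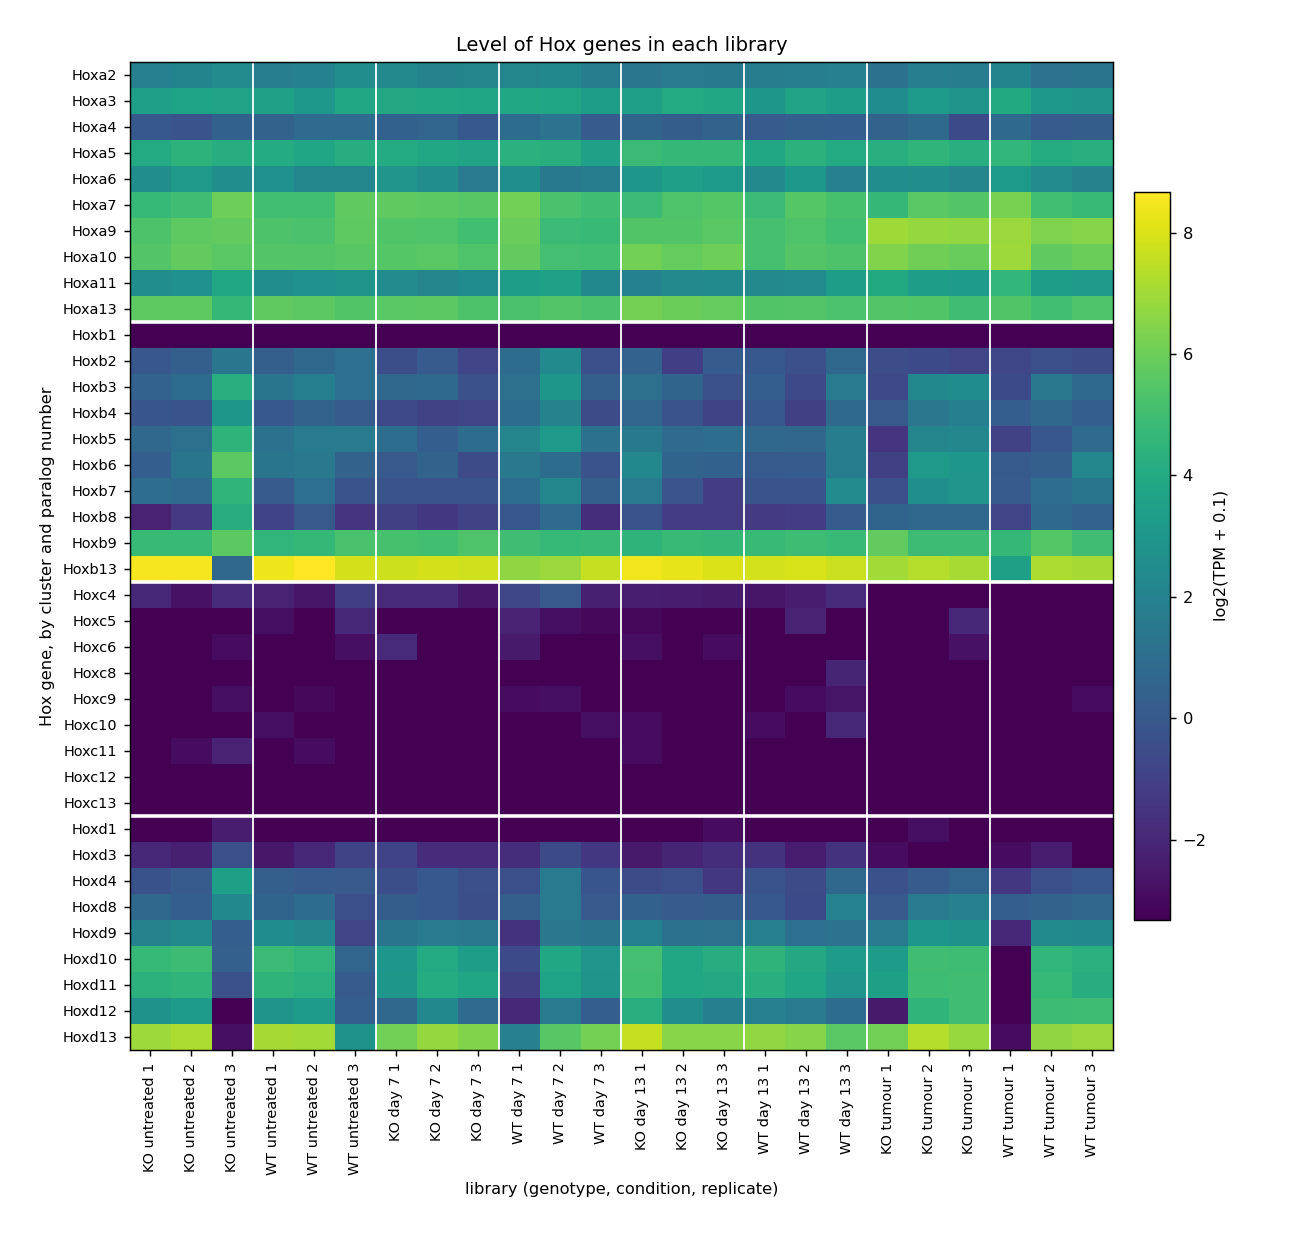
Level of Hox genes (rows, by cluster and paralog number) in each library (columns, by genotype, condition and replicate) as log2(TPM + 0.1). The bottom rows of HoxA, HoxB and HoxD are bright, HoxC is dark throughout, and KO untreated 3, WT untreated 3, WT day 7 1 and WT tumour 1 are dark across Hoxd9 to Hoxd13.

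In 4 libraries the summed transcript of the posterior HoxD genes was far below that of the others. Together Hoxd9 to Hoxd13 summed to 2.99 TPM in KO untreated replicate 3, 10.7 in WT untreated replicate 3, 4.91 in WT day 7 replicate 1 and 0.18 in WT tumour replicate 1, against 69.0 to 283 in the other 20 libraries. The low libraries came from 4 different groups and from both genotypes. Hoxa7, a mid-cluster gene, took the opposite order: 64.2, 53.2, 69.6 and 75.9 TPM in the same libraries, against 25.4 to 52.8 TPM in the other 20. These 4 libraries were singled out after their Hoxd values were seen, so their difference from the others is given as a description. Changes without them, and counts of genes past the threshold without them, are given below as descriptions too. They are no test, since the choice of libraries rests on Hox levels.

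KO untreated replicate 3 stood apart a second way. Its Hoxb2 to Hoxb8 genes summed to 142 TPM, against 4.73 to 34.1 TPM in the other 23 libraries, and it held the highest value of 11 Hox genes. Hoxb6 reached 49.8 TPM there and Hoxb8 17.4 TPM, while Hoxb13 stood at 1.56 TPM, against 366 and 367 TPM in the other two untreated KO libraries. WT tumour replicate 1 also had low Hoxb13, at 11.2 TPM, but its Hoxb2 to Hoxb8 sum of 4.93 TPM was among the lowest.

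Levels of some genes known for a place along the gut are given beside these libraries. Cdx2, a caudal factor of the intestinal epithelium, stood at 192 TPM in KO untreated replicate 3, 50.4 TPM in WT untreated replicate 3, 94.0 TPM in WT day 7 replicate 1 and 99.1 TPM in WT tumour replicate 1, against 1.69 to 43.3 TPM in the other 20 libraries. Among 5 measured genes of a list of distal colon genes, Scnn1g, a subunit of the epithelial sodium channel, stood at 0.20, 6.60, 2.36 and 0.54 TPM in the same order, against 0.63 to 39.1 TPM in the others. Retnlb, a goblet cell product of that list, stood at 465, 2.36, 780 and 365 TPM, against 0.00 to 254.5 TPM, and the list summed to 478, 127, 842 and 372 TPM, against 45.9 to 476 TPM. Small intestine genes, a list of 10, summed to 1189, 108, 180 and 72.4 TPM, against 14.8 to 118 TPM in the others. The value of KO untreated replicate 3 was nearly all Fabp2, a fatty acid binding protein, at 1127 TPM. Cdx2 lay above the other 20 libraries in all 4, while for Scnn1g, Retnlb and both list sums the 4 overlapped the others. Fxyd4, also of the distal list, stood at 0.16, 103.5, 50.3 and 0.16 TPM in the order above. In KO untreated replicate 3 and WT tumour replicate 1, Fxyd4 and Scnn1g were both below all of the other 20. Scnn1b and Ly6g6c, the rest of the list, lay within the range of the 20 in all 4. The distal sum was mostly Retnlb in KO untreated replicate 3, WT day 7 replicate 1 and WT tumour replicate 1. The part of these genes, or of the place from which tissue was taken, in the Hox levels was not tested.

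**Figure D2:**
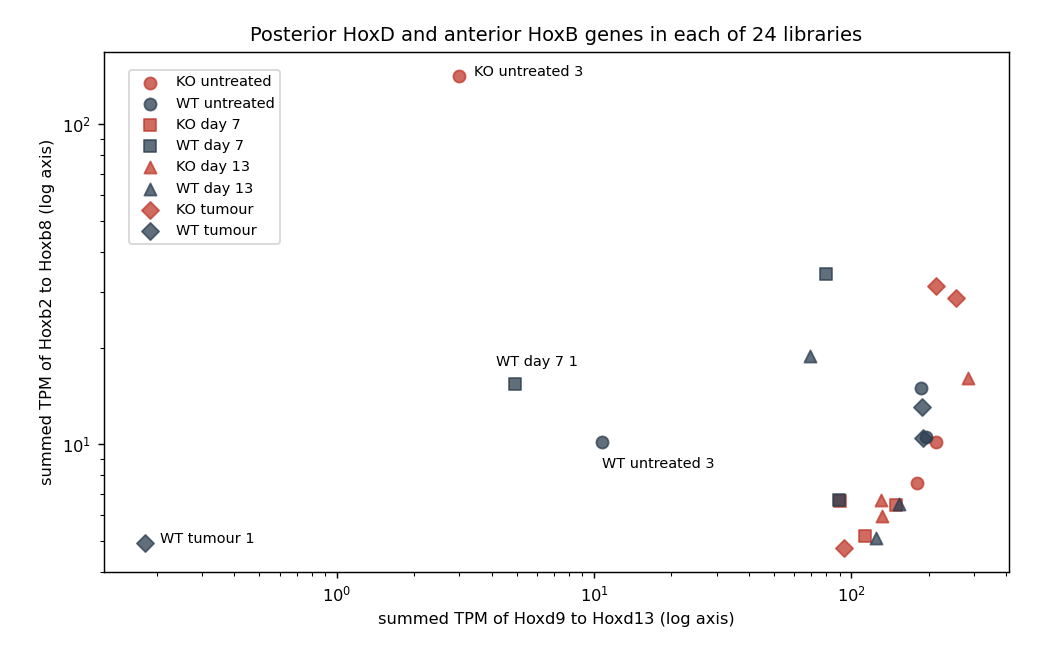
Summed TPM of Hoxd9 to Hoxd13 (x, log axis) against summed TPM of Hoxb2 to Hoxb8 (y, log axis), 1 point per library, coloured by genotype and shaped by condition. The 4 named libraries lie at 0.18 to 10.7 on the x axis, and KO untreated 3 lies alone at 142 on the y axis.

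Promoters of some genes from Hoxd9 to Hoxd13 and from Hoxb2 to Hoxb8 are shown because the sum of each set stood apart in libraries named above. Those of Hoxd9 and Hoxd11 are not printed. RefSeq promoters on GRCm38.p6 (300 bases, 250 before the start of the gene) were found for 22 of the 39 genes, with 24 promoters in all. A caudal (Cdx) type motif, TTTATNG, and a Pbx-Hox type motif, TGATNNAT, were searched on both strands, and matches are in capitals. The 5 promoters below lie on the plus strand, those of Hoxd13 at chr2:74667975-74668274, Hoxd12 at chr2:74674763-74675062, Hoxd10 at chr2:74691641-74691940, Hoxb8 at chr11:96281655-96281954 and Hoxb4 at chr11:96318017-96318316.
Hoxd13: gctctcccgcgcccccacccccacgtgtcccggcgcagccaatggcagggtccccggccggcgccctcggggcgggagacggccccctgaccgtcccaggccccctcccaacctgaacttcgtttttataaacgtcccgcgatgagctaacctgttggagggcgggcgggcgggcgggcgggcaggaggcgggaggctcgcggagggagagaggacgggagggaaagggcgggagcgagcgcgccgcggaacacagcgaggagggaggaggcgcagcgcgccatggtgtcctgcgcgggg
Hoxd12: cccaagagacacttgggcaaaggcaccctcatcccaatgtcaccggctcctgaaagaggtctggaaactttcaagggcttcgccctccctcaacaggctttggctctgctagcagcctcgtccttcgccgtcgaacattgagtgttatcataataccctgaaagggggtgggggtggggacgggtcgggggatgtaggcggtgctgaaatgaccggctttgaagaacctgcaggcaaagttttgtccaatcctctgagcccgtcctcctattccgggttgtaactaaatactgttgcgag
Hoxd10: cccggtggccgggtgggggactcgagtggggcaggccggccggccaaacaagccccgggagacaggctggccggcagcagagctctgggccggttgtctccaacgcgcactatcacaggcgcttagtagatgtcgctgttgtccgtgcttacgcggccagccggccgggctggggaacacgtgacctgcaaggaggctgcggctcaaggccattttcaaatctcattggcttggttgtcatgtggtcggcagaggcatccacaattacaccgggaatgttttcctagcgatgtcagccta
Hoxb8: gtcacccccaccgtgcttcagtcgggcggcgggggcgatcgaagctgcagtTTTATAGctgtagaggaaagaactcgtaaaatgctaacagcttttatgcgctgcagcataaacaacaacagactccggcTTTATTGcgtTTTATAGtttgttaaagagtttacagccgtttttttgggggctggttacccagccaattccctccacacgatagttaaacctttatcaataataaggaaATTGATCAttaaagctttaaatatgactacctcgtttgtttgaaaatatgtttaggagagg
Hoxb4: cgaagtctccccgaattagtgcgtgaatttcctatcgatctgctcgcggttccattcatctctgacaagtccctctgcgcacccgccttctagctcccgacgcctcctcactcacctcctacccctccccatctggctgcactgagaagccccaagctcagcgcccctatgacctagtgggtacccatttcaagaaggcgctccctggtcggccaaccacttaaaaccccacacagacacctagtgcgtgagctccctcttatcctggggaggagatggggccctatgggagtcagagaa
Hoxb8 held 3 matches to the caudal type motif and 1 to the Pbx-Hox type motif, and none of the matches in the 24 promoters overlapped a match of the other motif. The caudal type motif was in 2 of the 24 Hox promoters (8.3%), those of Hoxb8 and Hoxd4, against 10.9% of all 32851 promoters of that length. The Pbx-Hox type motif was in 4 of them (16.7%), against 8.8% of all. They were the promoters of Hoxb8, Hoxb1 and Hoxa2 and a promoter of Hoxd11. The Hox promoters had a median GC content of 57.7% (39.7% to 81.0%), against 52.7% for all promoters, and a median of 14.5 CpG dinucleotides, against 7. A match describes the letters only and says nothing about binding.

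The paralog group 13 genes differed in how steady they were. Hoxa13, which with Hoxd13 shapes the hindgut and limb ends, had 52.4, 51.5 and 25.7 TPM in untreated KO colon, against 53.3, 49.5 and 42.1 TPM in untreated WT colon. It had 48.1, 49.3 and 39.9 TPM in KO colon at day 7, against 37.8, 43.5 and 37.9 TPM in WT colon at day 7. Its lowest value over all 24 libraries was that of KO untreated replicate 3, and it was at 31.4 TPM or more in every other library, including the other 3 that were low in HoxD.

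Hoxb13, best known from the prostate and the tail end of the embryo, had 366, 367 and 1.56 TPM in untreated KO colon, against 325, 408 and 236 TPM in untreated WT colon. It had 215, 241 and 222 TPM in KO colon at day 7, against 103, 117 and 194 TPM in WT colon at day 7. At day 13 it had 338, 298 and 252 TPM in KO colon, against 230, 247 and 211 TPM in WT colon. The KO and WT values did not overlap at either DSS time, and the fitted differences of 0.75 ± 0.91 at day 7 (adjusted p = 0.622) and 0.49 ± 0.91 at day 13 (adjusted p = 0.826) did not pass, in a fit whose spread includes the 1.56 TPM library. Without the 4 low libraries the day 7 difference was 0.59.

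Hoxd13, needed for digits and the anal region, had 123, 146 and 0.04 TPM in untreated KO colon, against 132, 129 and 6.73 TPM in untreated WT colon. It had 70.2, 108 and 85.5 TPM in KO colon at day 7, against 3.59, 47.5 and 71.1 TPM in WT colon at day 7. At day 13 it had 194, 93.7 and 93.4 TPM in KO colon, against 105, 90.4 and 47.9 TPM in WT colon. Hoxc13, the remaining member of the group, had no count.

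**Figure D3:**
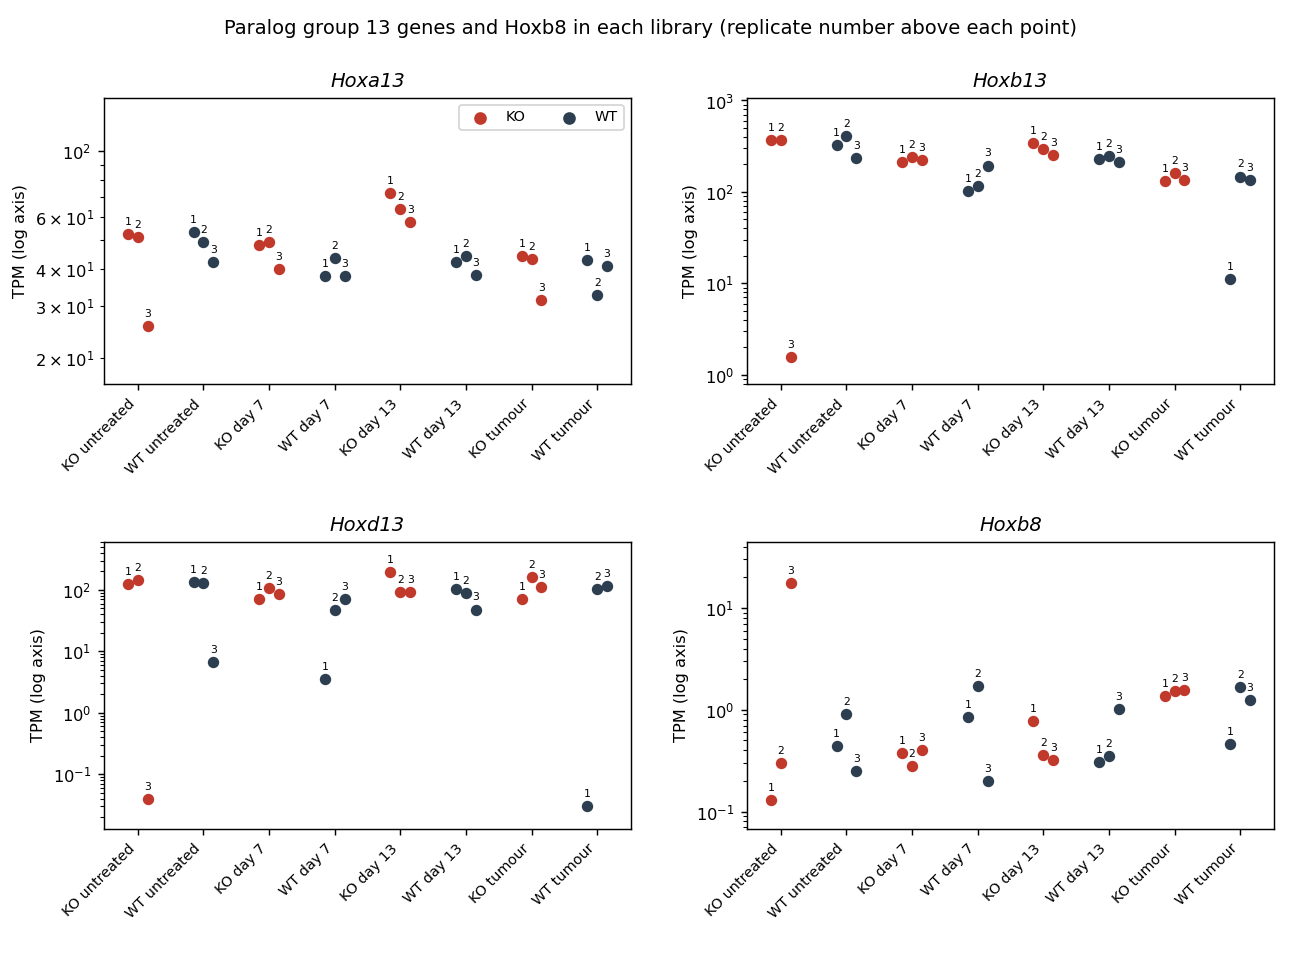
TPM (log axis) of Hoxa13, Hoxb13, Hoxd13 and Hoxb8 in each library, by group, with the replicate number above each point and KO in red. Replicate 3 of untreated KO colon is the lowest point for Hoxa13 (25.7 TPM) and Hoxb13 (1.56 TPM) and the highest for Hoxb8 (17.4 TPM).

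In untreated colon no Hox gene was called between KO and WT mice. None of the 29 Hox genes tested was called by edgeR or by DESeq2, and edgeR called 2 of 18102 genes in all (0.011%). An unadjusted p under 0.05 was found for 6 Hox genes, beside 1182 of 18102 genes. The smallest p belonged to Hoxb8, a trunk gene also used in blood cells, with 0.13, 0.30 and 17.4 TPM in KO colon, against 0.44, 0.91 and 0.25 TPM in WT colon. Its difference was 4.05 ± 1.3 (adjusted p = 0.611), and it was -0.56 without KO untreated replicate 3. Hoxb6, its neighbour, had 1.10, 2.40 and 49.8 TPM in KO colon, against 2.40, 2.67 and 1.29 TPM in WT colon. The sign of its difference, 3.17 ± 1.11 (adjusted p = 0.695), also rested on that library and was -0.20 without it. The median difference of the Hox genes tested was 0.27, beside -0.01 for all genes.

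At day 7 no Hox gene was called between KO and WT colon. The count was 0 of 29 by edgeR and by DESeq2, and edgeR called 1 of 18102 genes in all (0.00552%). An unadjusted p under 0.05 was found for 3 Hox genes, beside 4887 of 18102 genes. Hoxb2, a hindbrain gene, had 0.64, 0.98 and 0.46 TPM in KO colon, against 1.77, 5.25 and 0.66 TPM in WT colon, a difference of -1.64 ± 0.65 (adjusted p = 0.124). Hoxb4, known for its use in blood stem cells, had 0.52, 0.42 and 0.46 TPM in KO colon, against 1.80, 4.08 and 0.59 TPM in WT colon, a difference of -2.04 ± 0.88 (adjusted p = 0.153). For both genes the highest value was that of the library with the most smooth muscle transcript, WT day 7 replicate 2, and the part of muscle in it was not tested. Without the 4 libraries low in posterior HoxD, 2 of 28 Hox genes, Hoxa9 (0.63) and Hoxb9 (0.55), were past the threshold, beside 6.34% of all genes. That count is a description and no test, since those libraries were chosen by their Hox levels.

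At day 13, 3 HoxA genes were higher in KO colon. Hoxa10, Hoxa13 and Hoxa5 were called among 29 Hox genes tested and none was lower, beside 455 calls among 18102 genes (2.51%), 118 of them higher (0.652%). DESeq2 called the same 3. Hoxa10, a gene of the posterior trunk and the reproductive tract, had 69.0, 56.4 and 64.5 TPM in KO colon, against 35.2, 44.7 and 39.7 TPM in WT colon, a difference of 0.80 ± 0.18 (adjusted p = 0.0332). Hoxa13 had 72.3, 63.9 and 57.8 TPM in KO colon, against 42.3, 44.4 and 38.0 TPM in WT colon, a difference of 0.82 ± 0.20 (adjusted p = 0.0429). Hoxa5, needed for lung and gut patterning, had 28.7, 25.2 and 25.4 TPM in KO colon, against 14.4, 20.5 and 16.3 TPM in WT colon, a difference of 0.76 ± 0.19 (adjusted p = 0.0455). All 3 KO libraries lay above all 3 WT libraries for each of these genes.

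The day 13 calls were fragile. With the 2 libraries rich in squamous transcript left out, the differences were 0.66 for Hoxa10, 0.61 for Hoxa13 and 0.58 for Hoxa5, none of them called (adjusted p = 0.367, 0.448 and 0.452). In a fit of the 6 day 13 libraries alone the adjusted p was 0.0894 for Hoxa10 and Hoxa13 and 0.112 for Hoxa5. Transcript of the Y-linked gene Ddx3y was above 1 TPM in 0 of 3 KO and in 3 of 3 WT libraries at this time, so that sex, as read from expression, and genotype cannot be told apart within them. With Y-linked expression as a covariate over the 18 colon libraries none of the 3 was called, at 0.70 for Hoxa10, 0.96 for Hoxa13 and 0.73 for Hoxa5 (adjusted p = 0.375, 0.274 and 0.357). Other cell types moved too: 10 immune genes summed to 54.0 to 112 TPM in KO colon, against 178 to 847 TPM in WT colon, with 5 called lower, and 2 of 10 fibroblast genes were called lower. Their part in the result was not tested.

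**Figure D4:**
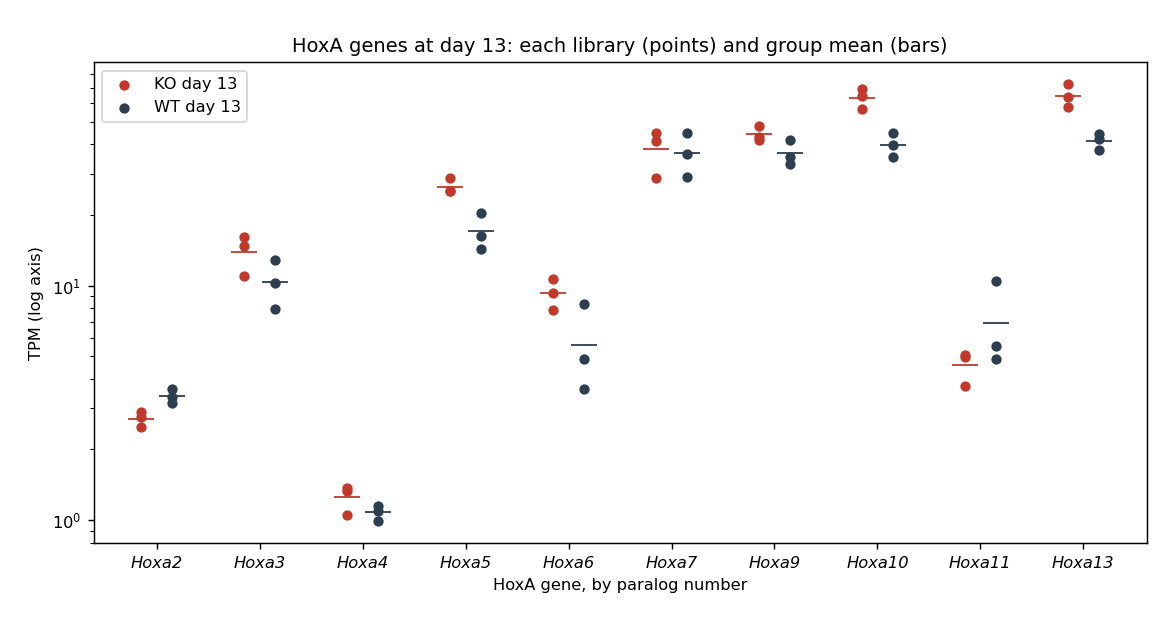
TPM (log axis) of HoxA genes at day 13 in KO (red, left) and WT (dark, right) colon, with each library as a point and the group mean as a bar. The points of the 2 groups do not overlap for Hoxa5, Hoxa10 and Hoxa13, and the same holds for Hoxa9 (42.0 to 47.8 against 32.9 to 41.8 TPM) and, in the other direction, Hoxa2 (2.50 to 2.88 against 3.17 to 3.62 TPM), neither of which was called.

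Between KO and WT tumours no Hox gene was called. Of 27 Hox genes tested, 0 were called by edgeR, 0 by DESeq2 and 0 had an unadjusted p under 0.05, and edgeR called 0 of 17245 genes in all (0.0%), with 654 at an unadjusted p under 0.05. DESeq2 called 22 genes. Hoxd4, a gene of the neck vertebrae, had 0.68, 1.04 and 1.43 TPM in KO tumours, against 0.28, 0.67 and 0.87 TPM in WT tumours, a difference of 0.78 ± 0.44 (adjusted p = 0.942). Hoxa3, needed for the thymus and parathyroid, had 5.67, 9.61 and 7.26 TPM in KO tumours, against 15.7, 8.42 and 7.41 TPM in WT tumours, a difference of -0.62 ± 0.39 (adjusted p = 0.942). In both genes the ranges of the groups overlapped. Hoxd13 had 70.2, 163 and 113 TPM in KO tumours, against 0.03, 104 and 116 TPM in WT tumours, and Hoxd12 had 0.08, 23.2 and 31.6 TPM in KO tumours, against 0.00, 30.1 and 30.6 TPM in WT tumours. KO tumour replicate 1 thus had low Hoxd12 beside Hoxd13 within the range of the others.

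After 7 days of DSS, 3 HoxB genes were called lower in KO colon, and the calls rested on 1 untreated library. They were Hoxb6, Hoxb4 and Hoxb7, of 29 Hox genes tested, beside 4.07% of all genes called lower and 12.6% called in either direction. DESeq2 called Hoxb3, Hoxb4, Hoxb5 and Hoxb6. Hoxb6 had 0.91, 1.31 and 0.59 TPM at day 7, against 1.10, 2.40 and 49.8 TPM in untreated KO colon, a change of -4.43 ± 1.19 (adjusted p = 0.0248). Hoxb4 had 0.52, 0.42 and 0.46 TPM at day 7, against 0.82, 0.78 and 8.03 TPM untreated, a change of -2.88 ± 0.89 (adjusted p = 0.0461). Hoxb7 had 0.77, 0.75 and 0.76 TPM at day 7, against 1.86, 1.72 and 22.9 TPM untreated, a change of -3.52 ± 1.10 (adjusted p = 0.0483). In each gene the day 7 libraries lay close together, 2 untreated libraries were near them and KO untreated replicate 3 was far above. Without that library the changes were -1.04 for Hoxb6, -0.77 for Hoxb4 and -1.04 for Hoxb7, none of them called. The change of Hoxa7 was 0.26 ± 0.35 (adjusted p = 0.695). Without all 4 libraries low in posterior HoxD, which are those with the most Hoxa7, it was 0.80. Xist, a transcript of female cells, was above 1 TPM in 2 of 3 KO libraries at day 7. It was above 1 TPM in 0 of 3 untreated KO libraries, so sex was not balanced between these groups.

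In WT colon at day 7 no Hox gene was called against untreated WT colon by edgeR or DESeq2, beside 16.3% of all genes called by edgeR. None had an unadjusted p under 0.05, beside 5927 of 18102 genes. Hoxd3, a gene of the neck vertebrae, had 0.20, 0.54 and 0.28 TPM at day 7, against 0.07, 0.16 and 0.45 TPM untreated, a change of 1.46 ± 0.69 (adjusted p = 0.157). Hoxc4 had 0.48, 0.91 and 0.11 TPM at day 7, against 0.13, 0.06 and 0.37 TPM untreated, a change of 1.29 ± 0.69 (adjusted p = 0.207). Without the 4 low libraries the changes were -1.21 for Hoxb13, -0.55 for Hoxa9 and 2.10 for Hoxd3. They lay within a range of -2.22 to 2.10 over 28 Hox genes (median 0.04). Xist, which female cells transcribe, was above 1 TPM in 3 of 3 WT libraries at day 7 and in 1 of 3 untreated WT libraries, the one of replicate 3 that is then left out, so that sex and DSS cannot be told apart in those values.

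At day 13 no Hox gene was called against untreated colon in either genotype by either tool. In KO colon 14 of 29 Hox genes had an unadjusted p under 0.05, beside 1380 of 18102 genes, and 5 genes were called (0.0276%). Among the 14 were Hoxb3 to Hoxb8, Hoxd3, Hoxd4 and Hoxd8, each highest over all libraries in KO untreated replicate 3. The others were Hoxa2, Hoxa5, Hoxa10, Hoxa11 and Hoxa13. In WT colon 0 of 29 had an unadjusted p under 0.05, beside 4048 of 18102 genes, and 767 genes were called (4.24%). The median change of the Hox genes tested in KO colon was -0.31, and 0.09 without the 4 low libraries. In KO colon Hoxd4 had 0.58, 0.66 and 0.28 TPM at day 13, against 0.70, 0.98 and 11.2 TPM untreated (-3.07 ± 0.87, adjusted p = 0.394), and without KO untreated replicate 3 its change was -0.74. The change of Hoxa13 in KO colon was 0.68 ± 0.20 (adjusted p = 0.410), and 0.41 without that library. Xist was above 1 TPM in 3 of 3 KO libraries at day 13 and in 0 of 3 untreated KO libraries, so that sex and time cannot be told apart within them. In WT colon Hoxa4, a gene of the neck region, had 0.99, 1.15 and 1.09 TPM at day 13, against 1.29, 1.73 and 1.74 TPM untreated (-0.54 ± 0.30, adjusted p = 0.310). For Hoxa4 the WT groups did not overlap.

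Tumours had more Hoxa9 than untreated colon. KO tumours had 123, 109 and 107 TPM, against 40.4, 51.5 and 55.2 TPM in untreated KO colon, and WT tumours had 116, 82.5 and 88.8 TPM, against 40.0, 37.2 and 51.2 TPM in untreated WT colon. Neither pair of groups overlapped. TPM put the median gene 0.49 higher on the log2 scale in KO tumours and 0.27 higher in WT tumours than in untreated colon, so the count fit, which removes such a shift, gave smaller changes. They were 0.68 ± 0.30 in KO mice (adjusted p = 0.0655), which did not pass, and 1.07 ± 0.30 in WT mice (adjusted p = 0.00621), which did. Without the 4 low libraries they were 0.94 in KO mice and 1.01 in WT mice. Hoxa10 had 122, 53.5 and 62.5 TPM in WT tumours, against 43.7, 43.8 and 46.5 TPM in untreated WT colon, and was called at 0.72 ± 0.25 (adjusted p = 0.0215). Without WT tumour replicate 1, the library at 122 TPM, its change was 0.27 (adjusted p = 0.285).

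In the edgeR fit of all libraries, the Hox genes called lower in tumours were of paralog groups 2 to 4, and DESeq2 also called Hoxa13 in both genotypes and Hoxb5 in KO mice. In KO mice 6 of 29 Hox genes tested were called lower and 0 higher, beside 23.5% of all genes lower and 26.4% higher. In WT mice 4 were lower and 2, Hoxa9 and Hoxa10, were higher, beside 21.2% of all genes lower and 27.6% higher. These shares of the Hox genes were thus no larger than those of all genes. The grouping by paralog number was noticed after the values were seen and has no test. In these bulk libraries, fewer cells of a type and less RNA per cell cannot be told apart.

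Hoxa2, which gives the second pharyngeal arch its identity, had 2.16, 3.44 and 3.33 TPM in KO tumours, against 3.61, 4.10 and 5.49 TPM in untreated KO colon (-1.0 ± 0.28, adjusted p = 0.00624). It had 4.20, 2.30 and 2.37 TPM in WT tumours, against 3.40, 3.76 and 5.73 TPM in untreated WT colon (-0.69 ± 0.28, adjusted p = 0.0464). The WT groups overlapped through WT tumour replicate 1, and the KO groups did not overlap. Hoxa3 had 5.67, 9.61 and 7.26 TPM in KO tumours, against 10.7, 12.5 and 12.1 TPM in untreated KO colon (-1.03 ± 0.28, adjusted p = 0.00513), and in WT mice its change was -0.26 ± 0.28 (adjusted p = 0.469). The difference between the genotypes in this change was -0.78 ± 0.39 (adjusted p = 0.600).

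Hoxd3 had 0.03, 0.00 and 0.00 TPM in KO tumours, against 0.15, 0.11 and 0.67 TPM in untreated KO colon, a change of -4.50 ± 0.93 (adjusted p = 0.000608). It had 0.03, 0.09 and 0.00 TPM in WT tumours, against 0.07, 0.16 and 0.45 TPM in untreated WT colon, a change of -2.88 ± 1.0 (adjusted p = 0.0229). These are levels near 0, and the groups overlapped in WT mice and not in KO mice. Hoxc4, a gene linked to oesophageal muscle in mice, had 0 counts over the 3 KO tumours, against 14 over untreated KO colon, which makes it at least 4.01-fold lower against a floor of 3 counts over the group (adjusted p = 0.00423). It had 0 counts over the 3 WT tumours, against 17 over untreated WT colon, at least 6.05-fold lower against the same floor (adjusted p = 0.00216). Hoxb2 had 0.61, 0.54 and 0.47 TPM in KO tumours, against 0.86, 1.12 and 2.50 TPM in untreated KO colon, and 0.48, 0.67 and 0.58 TPM in WT tumours, against 1.14, 1.54 and 1.96 TPM in untreated WT colon. Its changes were -1.77 ± 0.59 in KO mice (adjusted p = 0.0185) and -1.49 ± 0.59 in WT mice (adjusted p = 0.0434), and tumours and untreated colon did not overlap in either. Hoxd4 was lower in KO tumours by the fit (-2.31 ± 0.77, adjusted p = 0.0180), with KO untreated replicate 3 at 11.2 TPM and the other untreated KO libraries at 0.70 and 0.98 TPM. Without the 4 low libraries the change of Hoxd4 in KO mice was 0.04. That of Hoxb2 was -1.12 in KO mice and -1.14 in WT mice, and Hoxc4 was not in that fit. In WT mice the calls of Hoxa2, Hoxb2 and Hoxd3 ended with single libraries left out. The weakest changes were -0.43 for Hoxa2 and -1.23 for Hoxb2 without untreated replicate 3 and -2.37 for Hoxd3 without tumour replicate 3.

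Smooth muscle transcript was lower in tumours of both genotypes. The summed TPM of the 10 smooth muscle genes was 219 to 286 in KO tumours, against 2395 to 2918 in untreated KO colon, and 140 to 239 in WT tumours, against 4357 to 6342 in untreated WT colon. All 10 were called lower in both genotypes. Of 10 enteric neuron and glia genes, 7 were lower and 1 higher in KO tumours, and 7 were lower and 1 higher in WT tumours. Of 10 immune genes, 6 were higher and 1 lower in KO tumours and 8 were higher and 1 lower in WT tumours. Of 10 fibroblast genes, 6 were higher and 2 lower in KO tumours and 3 were higher and 2 lower in WT tumours. Of 10 epithelial genes, 1 was higher and 7 lower in KO tumours and 1 was higher and 0 lower in WT tumours. Of 8 squamous epithelium genes tested, 6 were higher in KO tumours and 1 in WT tumours, and of 6 endothelial genes 2 were higher in KO tumours and 1 in WT tumours, with none of either list lower. The part of these cell types in the Hox changes was not tested.

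For Hoxb13, tumours against untreated colon turned on 2 of the libraries low in posterior HoxD. It had 131, 163 and 135 TPM in KO tumours, against 366, 367 and 1.56 TPM in untreated KO colon (-1.16 ± 0.94, adjusted p = 0.319). It had 11.2, 147 and 135 TPM in WT tumours, against 325, 408 and 236 TPM in untreated WT colon (-1.91 ± 0.96, adjusted p = 0.108). Neither passed. Without the 4 low libraries, which hold the 1.56 and 11.2 TPM values, the changes were -1.74 in KO mice and -1.56 in WT mice. Hoxa13 was at -0.48 ± 0.20 in KO mice (adjusted p = 0.0569) and -0.43 ± 0.20 in WT mice (adjusted p = 0.0881) with all libraries, where DESeq2 called it in both genotypes. Without the 4 it was at -0.74 in KO mice and -0.61 in WT mice. In that fit of 28 Hox genes, 2 were past the threshold above 0 and 5 below in KO mice, beside 46.1% of all genes. In WT mice 1 was above and 4 were below, beside 45.2% of all genes. These counts are descriptions and no test, since the libraries left out were chosen by their Hox levels. Hoxd13 had 70.2, 163 and 113 TPM in KO tumours, against 123, 146 and 0.04 TPM in untreated KO colon, a change of 0.003 ± 1.47 (adjusted p = 0.999), with a single low library in the untreated group.

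**Figure D5:**
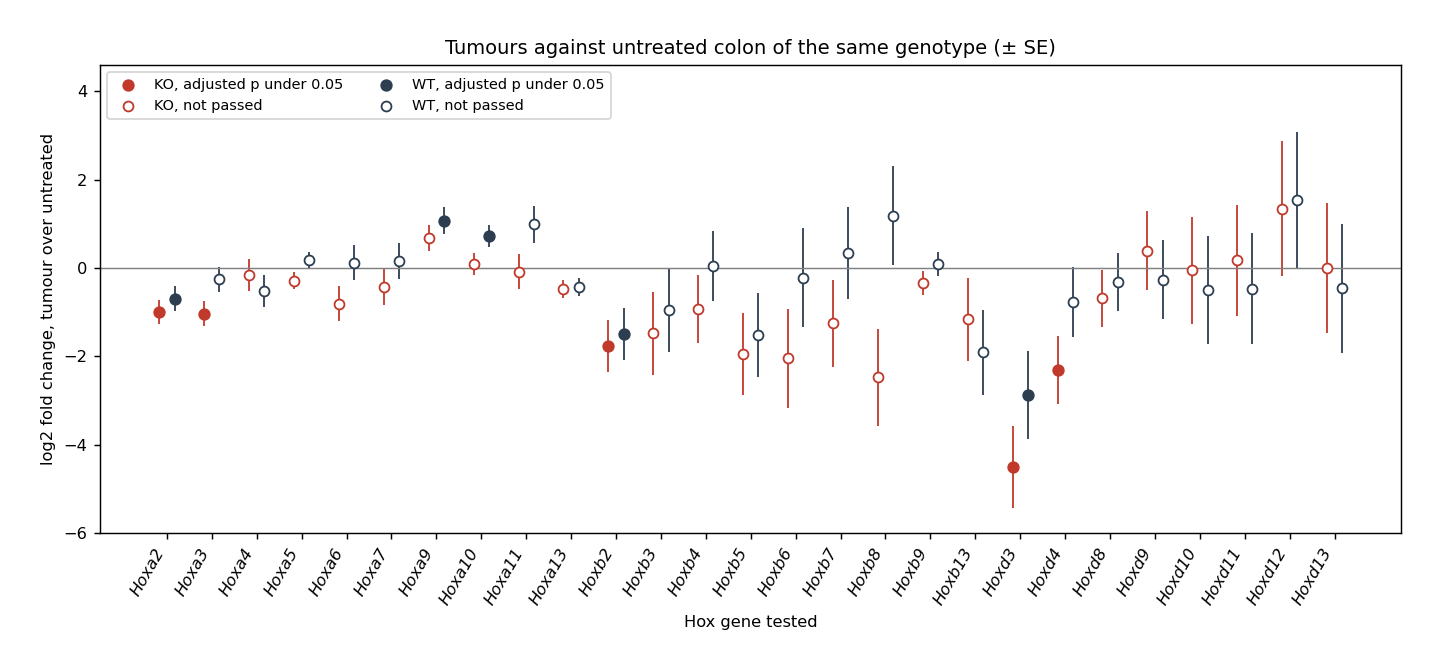
Log2 fold change ± SE of Hox genes tested, tumour over untreated colon of the same genotype, KO in red to the left and WT in dark to the right, filled where the adjusted p was under 0.05. Hoxa9 and Hoxa10 are filled above 0 in WT mice, the other filled points are of paralog groups 2 to 4 and below 0, and error bars are widest among the HoxB and HoxD genes. Hoxc4, at 0 counts in tumours, is left out.

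No Hox gene was called in a test of whether a response differed between KO and WT mice. The counts by edgeR were 0 of 29 for the day 7 response, beside 0.0% of all genes called. They were 0 of 29 for the day 13 response, beside 0.011%, and 0 of 29 for the tumours, beside 0.0%. For the day 7 response 9 Hox genes had an unadjusted p under 0.05, beside 2487 of 18102 genes. For the day 13 response 7 had one, beside 2448 of 18102, and for the tumours 1 had one, beside 1652 of 19056. DESeq2 called Hoxb4 for the day 7 response (adjusted p = 0.0451) and none for day 13 or the tumours. By edgeR the difference for Hoxb4 was -3.79 ± 1.21 (adjusted p = 0.239) and that for Hoxb5, a gene used by enteric neurons, -3.41 ± 1.15 (adjusted p = 0.257). Without KO untreated replicate 3 they were -1.67 for Hoxb4 and -0.89 for Hoxb5. In the day 13 response it was 0.90 ± 0.28 for Hoxa13 (adjusted p = 0.184) and -3.02 ± 1.19 for Hoxd4 (adjusted p = 0.287), and without that library 0.63 for Hoxa13 and -0.68 for Hoxd4. In the tumour response it was -3.67 ± 1.56 for Hoxb8 (adjusted p = 0.528), and 0.97 without that library. These comparisons share the untreated KO libraries, replicate 3 among them. Xist was above 1 TPM in 0 of 3 untreated KO and 1 of 3 untreated WT libraries. It was above 1 TPM in 2 of 3 KO and 3 of 3 WT libraries at day 7. At day 13 it was above 1 TPM in 3 of 3 KO and 0 of 3 WT libraries. Sex was thus not balanced in the day 7 and day 13 responses.

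Regulators of Hox genes were called in tumours at about the rate of all genes in either direction, and most of those called rose. Of 17 tested from a list of 19, 7 rose and 2 fell in KO tumours against untreated colon. Of all genes in KO mice, 26.4% were called higher and 23.5% lower (49.9% in either direction). In WT tumours 9 of the 17 rose and 1 fell, beside 27.6% of all genes higher and 21.2% lower (48.8% in either direction). Their median change was 0.43 in KO mice and 0.68 in WT mice, beside 0.04 and 0.09 for all genes. Gdf11, a secreted factor that sets the trunk to tail transition, had 49.9, 21.9 and 70.7 TPM in KO tumours, against 0.49, 0.62 and 0.69 TPM in untreated KO colon (5.86 ± 0.50, adjusted p = 3.15e-07). It had 23.1, 48.8 and 29.1 TPM in WT tumours, against 0.46, 0.65 and 0.86 TPM in untreated WT colon (5.51 ± 0.50, adjusted p = 3.31e-07). All tumours stood above all untreated libraries. Ezh2, the Polycomb methyltransferase, rose by 1.69 ± 0.21 in KO tumours (adjusted p = 5.78e-06) and by 1.43 ± 0.21 in WT tumours (adjusted p = 2.33e-05), and Cbx2, another Polycomb protein, rose by 1.85 ± 0.28 in KO tumours (adjusted p = 3.45e-05) and by 1.89 ± 0.28 in WT tumours (adjusted p = 2.53e-05).

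At day 7, 3 of 17 regulators tested rose in KO colon against untreated KO colon and 0 fell. Of all genes, 12.6% were called in either direction and 4.07% were called lower. The regulators called were the Polycomb genes Eed (0.48 ± 0.09, adjusted p = 0.00214), Ezh2 (0.68 ± 0.19, adjusted p = 0.0291) and Suz12 (0.48 ± 0.14, adjusted p = 0.0327). Xist was above 1 TPM in 2 of 3 of these day 7 libraries and in 0 of 3 untreated ones, so sex was not balanced between them. No regulator was called in WT colon at day 7, beside 16.3% of all genes, and the difference between the genotypes was not called for any of the 17. Against the shares of all genes called in tumours given above, the other lists gave these counts. Of 9 cofactors, 2 rose in KO tumours and 1 rose and 3 fell in WT tumours. Pbx4 rose by 2.32 ± 0.48 in KO tumours (adjusted p = 0.000598) and by 1.88 ± 0.45 in WT tumours (adjusted p = 0.00219), while Meis1 fell by 2.44 (SE 0.70, adjusted p = 0.00783) and Pbx3 by 1.11 (SE 0.31, adjusted p = 0.00598) in WT tumours. Of the 5 measured distal colon genes, 2 fell in KO tumours and 3 fell and 1 rose in WT tumours. Scnn1g fell by 2.94 (SE 0.95, adjusted p = 0.0152) in KO tumours, and it fell by 4.56 (SE 1.01, adjusted p = 0.00117) in WT tumours. Of 10 small intestine genes, 2 rose and 6 fell in KO tumours and 2 rose and 2 fell in WT tumours. At day 7, 1 of 9 small intestine genes tested fell in KO colon, Slc10a2, the ileal bile acid transporter, by 2.17 (SE 0.64, adjusted p = 0.0373). It had 3.05, 6.47 and 4.53 TPM at day 7, against 9.29, 10.25 and 40.7 TPM untreated. The untreated KO libraries of both comparisons include replicate 3, the one at 40.7 TPM, where Fabp2 was at 1127 TPM, against 17.1 and 9.32 TPM in the others. Changes of these genes without it are not given. In WT colon at day 7 the cofactor Pbx2 fell by 0.48 (SE 0.14, adjusted p = 0.0310) and Retnlb rose by 8.96 ± 2.49 (adjusted p = 0.0255). No gene of these 4 lists was called between KO and WT mice in untreated colon, at day 7, at day 13 or in tumours.

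Some Hox counts are uncertain because exons overlap those of other genes. By the GENCODE annotation 16 of the 39 genes share exon bases with another gene, 10 of them on the opposite strand, and no source used here gives the strand setting of the counting. Hoxd3 shares 53.1% of its exon bases with the predicted gene Gm28230, Hoxb3 52.9% with the antisense gene Hoxb3os, Hoxd4 39.1% with Gm28230, Hoxa11 35.0% with Hoxa11os and Hoxb2 27.3% with Hoxb3os. Hoxa5, Hoxa10, Hoxa13, Hoxb6, Hoxb13 and Hoxd13 shared no exon base with another gene, and Hoxa9 shared 1.5%, with the microRNA gene Mir196b.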

How the data were processed

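Colon and tumour RNA was extracted with Trizol, per the labels' protocols. The submitters' processing notes name STAR 2.7.6a, RSEM 1.3.1 and the build GRCm38. No source used here gives the annotation release or the strand setting. Per the file headers, the authors deposited 1 gene table per library, with 55487 genes and their expected counts and TPM. Expected counts can split a read between genes, and 11.0% to 12.4% of the values per library were not whole within 0.001. TPM as deposited gave the levels. It is scaled to each library and to transcript length, so a large shift in a few genes moves all others. A symbol was found for 55141 genes in GENCODE M21, which also gave positions.

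Expected counts were rounded and tested with edgeR 4.0.16 (R 4.3.3): TMM normalization, the default filter on low counts (minimum 10, minimum total 15), robust quasi-likelihood F tests and Benjamini-Hochberg adjustment over all genes, threshold 0.05. Colon comparisons used the 18 colon libraries (18102 genes, 29 Hox genes), KO against WT tumours the 6 tumour libraries (17245 genes, 27 Hox genes), and tumours against colon all 24 (19056 genes, 29 Hox genes). The fits were tested on simulated data. Alternatives were DESeq2 1.42.0, other size factors (RLE), no filter, 1 CPM in 3 libraries, Y-linked expression as a covariate (log2 CPM, prior count 2), only the groups compared, single libraries left out, and, added after seeing the data, the 4 libraries low in Hoxd9 to Hoxd13 left out. Numbers of replicates follow the order of the samples and pair no libraries. No 2 libraries of a group were copies: the chi-square per gene between them was at least 14.7, where sampling noise gives about 1.

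Hox genes described by library were, in each comparison, up to 4 called per direction by smallest p, or the 2 with the smallest p where none was called, the paralog group 13 genes and the highest gene of each cluster. Lists of cofactors, regulators, regional genes and cell type markers are counted, with up to 3 examples by smallest p. The Hox genes and lists were chosen with earlier results of these data known. Intervals of levels are the spread of 3 libraries. Genes beyond this rule (Hoxa7, Hoxd12, Hoxb9, Hoxb5 and others) were named after their values were seen. The values of 1 gene are not reported here.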

Additional observations from a re-analysis of the deposited data

How the results depend on the processing

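No paired analysis was possible because the replicate numbers follow the order of the samples and the labels give none. The count of Hox genes called between KO and WT colon at day 13 was 3 and became 0 with the covariate of Y-linked expression, with only the groups compared, and without the squamous libraries, and ran from 0 to 4 when single libraries were left out. The day 7 count in KO colon was 3 and became 0 with no filter, with the covariate and with only the groups compared. It ran from 0 to 6 with single libraries left out. Without the 4 libraries low in posterior HoxD the changes of these 3 genes were -1.04 for Hoxb6, -0.78 for Hoxb4 and -1.04 for Hoxb7. Counts of genes past the threshold without those 4 libraries are descriptions and no test, since the libraries were chosen by their Hox levels. Without those 4 libraries, the count was 2 in place of 0 for KO against WT at day 7. It was 3 in place of 0 for WT colon at day 7. With single libraries left out the counts of both comparisons ran from 0 to 1 each. DESeq2 gave 1 in place of 0 for the day 7 response between genotypes. Leaving out single libraries gave 4 to 8 calls for KO tumours and 3 to 5 for WT tumours. The KO minus WT difference of untreated colon turned round without the 4 libraries, to -0.79 for Hoxb8 and -0.53 for Hoxb6, and with single libraries left out ran from -0.56 (without KO untreated replicate 3) to 4.64 for Hoxb8 and from -0.20 to 3.72 for Hoxb6. That of the tumour response for Hoxb8 turned round to 0.81 without the 4, and ran from -4.25 to 0.97 (without KO untreated replicate 3). The cause was not tested beyond these libraries. Groups of 3 libraries and counts near 0 limit HoxC, Hoxd1 and Hoxd3, for which a lack of a call says little.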
